A study of Mus musculus with 8 samples.

Results

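The 10 genes described here are products by which bone marrow stromal cells hold and feed blood-forming cells, together with the receptors and transcription factors that mark those stromal cells. They were taken by gene symbol: the secreted factors Cxcl12, Kitl, Il7 and Angpt1, the adhesion molecule Vcam1, the receptors Lepr, Pdgfra and Pdgfrb, and the transcription factors Foxc1 and Ebf3. Each matched 1 of the 48490 genes of the table, and all 10 were among the 12888 genes tested. They were measured in cells descended from hypertrophic chondrocytes, the enlarged cartilage cells at the base of the growth plate, in libraries that each pooled 70 reporter-positive (tdTomato) cells, picked by hand from the mouse proximal tibia at postnatal day 5. LoF (loss of function) cells, with 4 libraries, had the genotype Col10a1Cre;Rosa26-Tdtomato;Ctnnb1Δ/Δ, in which both alleles of the β-catenin gene are deleted. GoF (gain of function) cells, with 2 libraries, were Col10a1Cre;Rosa26-Tdtomato;Ctnnb1-exon3 Δ/+, in which 1 allele gives a β-catenin that escapes degradation. WT cells, with 2 libraries, were Col10a1Cre;Rosa26-Tdtomato. The Cre driven by Col10a1 and the reporter were thus shared by all 3 groups, and the WT cells lacked only the altered Ctnnb1 alleles.

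The labels do not say whether the libraries of a group came from separate animals, and a p-value here sets a difference only against library-to-library spread, part or all of which may be technical. In pools of cells, fewer cells of a type and less RNA per cell cannot be told apart.

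Stromal cells that express the leptin receptor Lepr are a major source of the chemokine CXCL12 and of stem cell factor, the product of Kitl, in adult marrow. CXCL12 holds stem cells and B cell precursors in place, stem cell factor keeps stem cells alive, and interleukin 7 is needed for early B cells. The transcription factors FOXC1 and EBF3 maintain these cells and keep the marrow cavity open. The same cells can give rise to osteoblasts and adipocytes, and β-catenin, which carries canonical Wnt signals to the nucleus, is known to favour the osteoblast fate. The study's title concerns β-catenin in the choice of hypertrophic chondrocytes between the fat and the bone fate.

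Between 12587 and 13944 genes were above 0 per library, and relative depth, read from the step between low values, spanned 1.28-fold. Values are FPKM, fragments scaled by transcript length and library total. Col10a1, the gene that drives the Cre, was detected in all 8 libraries (6.24 to 190 FPKM), with 9.61 to 114 in LoF, 6.24 and 20.5 in WT, and 190 and 177 in GoF. The other hypertrophic chondrocyte markers did not share a direction. Panx3 read 14.7 to 34.2 FPKM in LoF, 103 and 101 in WT, and 252 and 344 in GoF, and Ihh was listed at 0 outside GoF (1.46 and 3.91). Mmp13 read 3113 to 4784 in LoF, 2106 and 1514 in WT, and 10.9 and 86.7 in GoF. It made up most of the summed level of the 4 markers in LoF (3217 to 4919) and WT (1636 to 2215). In GoF (454 to 612) Col10a1 and Panx3 made up most of the sum. Y-linked transcripts were present and Xist absent in GoF libraries 1 and 2 and in LoF libraries 2 and 3, while LoF libraries 1 and 4 and both WT libraries held Xist without Y-linked transcripts. Sex and genotype therefore cannot be told apart when GoF is set directly against WT.

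Most of the niche genes were lower where β-catenin was stabilised than where it was deleted. Between GoF and LoF, 6 of the 10 were lower in GoF (Cxcl12, Vcam1, Pdgfrb, Kitl, Angpt1 and Foxc1), against 5.68% of all genes tested. None was called higher, against 5.97% of all genes (limma, with a Benjamini-Hochberg adjusted p under 0.05 as the call; 1 member, Lepr, was higher at an unadjusted p under 0.05). The median difference was -2.17 on the log2(FPKM + 1) scale for the 10 members and -0.17 for all genes. The members, and the lists given below, were chosen with earlier results of these data known. Their counts were therefore not tested against the shares of all genes. In 8 members every GoF library lay below every LoF library, which holds in that direction for 18.7% of all genes. Lepr was the member in which both GoF libraries lay above all 4 LoF libraries, a pattern of 14.8% of all genes. Differences below are of mean log2(FPKM + 1) from the fit of all 8 libraries, and this scale understates changes of low genes.

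**Figure D1:**
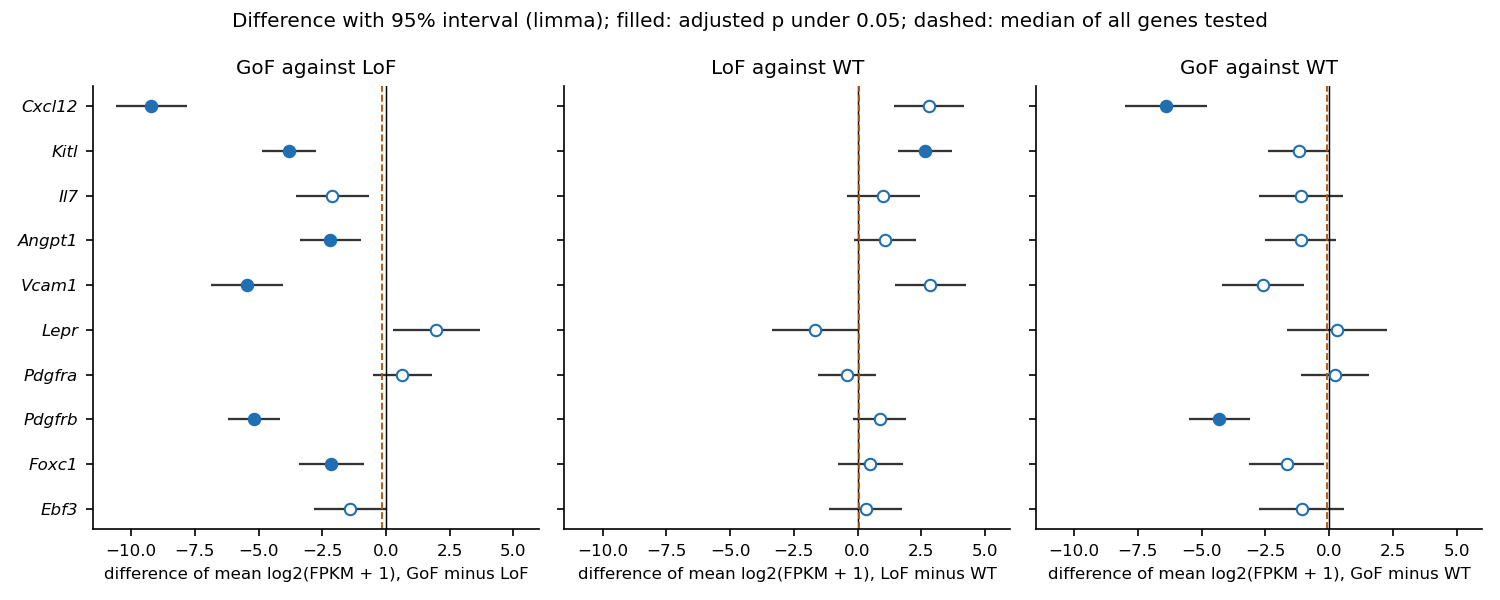
Difference of mean log2(FPKM + 1) between groups for each of the 10 niche genes (rows) in the 3 comparisons (panels). Points are limma estimates with 95% intervals, filled where the adjusted p was under 0.05, and the dashed line is the median of all 12888 genes tested. In GoF against LoF, 6 members are filled on the negative side, while Lepr and Pdgfra lie to the right of 0.

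Cxcl12 (ENSMUSG00000061353.11, chromosome 6, 117168535 to 117181367, mm10) was the most abundant member in LoF and WT. It read 553, 1572, 482 and 806 FPKM in the LoF libraries, 236 and 49.1 in WT, and 0.674 and 0 in GoF. The 3 groups did not overlap, and the lowest LoF library exceeded every value of every other member. GoF was lower than LoF by a log2 difference of -9.20 (SE 0.62, adjusted p = 5.81e-05 in limma) and lower than WT by -6.40 (SE 0.72, adjusted p = 0.00268). The second call ended when only GoF and WT entered the fit (adjusted p = 0.109) and with sex as a covariate (adjusted p = 0.0773). LoF exceeded WT by 2.81 (SE 0.62), which did not pass (adjusted p = 0.0671, and 0.0499 without WT library 1).

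The promoter windows of Cxcl12 and Lepr are shown because these members had the lowest and the highest GoF to LoF difference. Each runs from 250 bases before the annotated start to 50 bases from it on (RefSeq, GRCm38.p6, plus strand), 5′ to 3′, at chr6:117168285-117168584 for Cxcl12 and chr4:101717157-101717456 for Lepr. Capitals mark the letters CTTTGAT or CTTTGTT, forms bound by the TCF/LEF partners of β-catenin, searched on both strands.
Cxcl12: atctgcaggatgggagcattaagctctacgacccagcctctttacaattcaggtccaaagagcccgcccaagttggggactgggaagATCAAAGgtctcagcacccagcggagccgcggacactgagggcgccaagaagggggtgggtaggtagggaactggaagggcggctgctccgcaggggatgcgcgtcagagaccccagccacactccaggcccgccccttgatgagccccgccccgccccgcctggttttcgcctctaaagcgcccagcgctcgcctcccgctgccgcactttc
Lepr: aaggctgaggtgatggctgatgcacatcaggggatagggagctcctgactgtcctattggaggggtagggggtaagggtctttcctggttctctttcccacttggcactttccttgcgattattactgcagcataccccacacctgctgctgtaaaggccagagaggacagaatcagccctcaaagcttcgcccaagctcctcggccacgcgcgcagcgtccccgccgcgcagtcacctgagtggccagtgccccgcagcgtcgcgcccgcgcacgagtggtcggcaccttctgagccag

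The Cxcl12 window held 1 match to CTTTGAT, on the minus strand from base -163 to base -157 relative to the start, and 3.73% of the 32851 promoter windows of the same length held that motif. CTTTGTT, present in 5.85% of windows, was in neither sequence. The table of promoters held windows for 6 of the 10 members, which were Cxcl12, Kitl, Lepr, Pdgfra, Foxc1 and Ebf3, and none of the other 5 held either TCF/LEF form. The motif TCCCNNGGG, a form bound by EBF factors, was found once, in the window of Ebf3 (6.56% of all windows), and the forkhead form TGTTTAC in none of the 6 (3.65% of all windows). A match describes the letters and not a bound site.

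Kitl (ENSMUSG00000019966.17, chromosome 10, 100015630 to 100100413), which encodes stem cell factor, followed the same order. It read 25.5, 60.4, 28.5 and 37.8 FPKM in LoF, 4.27 and 5.74 in WT, and 0.726 and 3.03 in GoF. Every LoF library lay above every WT library, and both WT libraries above both GoF libraries. The GoF to LoF difference was -3.81 (SE 0.48, adjusted p = 0.000871 in limma). Kitl was also the 1 member called in LoF against WT (2.63, SE 0.48, adjusted p = 0.0326), but 10 of 15 alternatives lost the call. Among these were leaving out LoF library 2 or 4 or either WT library, with an adjusted p of 0.0616 to 0.241. GoF did not differ from WT beyond the test (-1.18, 95% interval -2.40 to 0.05, adjusted p = 0.371).

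Il7 (ENSMUSG00000040329.14, chromosome 3, 7569994 to 7613760) was low throughout. It read 1.12, 5.60, 2.22 and 6.59 FPKM in LoF and 2.56 and 0.282 in WT, and was listed at 0 in both GoF libraries. GoF lay below the other 6 libraries, but the difference from LoF did not pass (adjusted p = 0.0624). It passed with a pseudocount of 0.1 (adjusted p = 0.0224) and without LoF library 1 (adjusted p = 0.0379). Angpt1 (ENSMUSG00000022309.8, chromosome 15, 42424727 to 42676977) encodes the ligand that activates the TIE2 receptor of endothelial and blood stem cells. It read 18.5, 32.6, 29.4 and 26.9 FPKM in LoF, 15.6 and 9.23 in WT, and 1.92 and 11.5 in GoF. The GoF libraries lay on either side of the lower WT library. GoF was lower than LoF by -2.18 (SE 0.54, adjusted p = 0.0292), and 7 of 15 alternatives lost the call. These included leaving out LoF library 2, 3 or 4 (adjusted p = 0.0651, 0.0526 and 0.0548) and GoF library 1, where the difference was -1.13 (adjusted p = 0.341).

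Vcam1 (ENSMUSG00000027962.14, chromosome 3, 116109949 to 116129688), an adhesion molecule to which blood cells bind through the integrin α4β1, read 72.1, 134, 34.5 and 42.2 FPKM in LoF. It read 14.2 and 3.87 in WT, and 0 and 1.03 in GoF, so that the groups again did not overlap. The difference was -5.45 for GoF against LoF (SE 0.63, adjusted p = 0.000572 in limma). Neither contrast with WT passed: 2.86 for LoF (SE 0.63, adjusted p = 0.0671) and -2.59 for GoF (SE 0.73, adjusted p = 0.109).

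Lepr (ENSMUSG00000057722.17, chromosome 4, 101717404 to 101815352), the gene by which these stromal cells are usually recognised, ran the other way. It read 15.7, 32.6, 2.15 and 11 FPKM in LoF, 51.3 and 27.0 in WT, and 38.1 and 56.9 in GoF. Both GoF libraries lay above all LoF libraries and overlapped with WT, and LoF library 2 lay above WT library 2. The GoF to LoF difference of 1.98 (95% interval 0.29 to 3.67) did not pass after adjustment (adjusted p = 0.133 in limma), nor in any of 15 alternatives (adjusted p = 0.0536 to 0.415). LoF was at -1.66 relative to WT (95% interval -3.35 to 0.02, adjusted p = 0.382). GoF was at 0.31 relative to WT (95% interval -1.63 to 2.26, adjusted p = 0.929), an interval too wide to show that the groups were alike. The table has 1 value per gene, so it does not separate the long signalling form of the receptor from the short forms.

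Pdgfra and Pdgfrb, the receptors for platelet-derived growth factors, parted from each other. Pdgfrb (ENSMUSG00000024620.11, chromosome 18, 61045150 to 61085061) read 42.8, 33.9, 42.9 and 37.4 FPKM in LoF, 39.3 and 10.9 in WT, and 0.123 and 0.0975 in GoF. WT library 1 lay within the LoF range, and both GoF libraries were far below all others. GoF was lower than LoF by -5.17 (SE 0.46, adjusted p = 0.000161 in limma) and than WT by -4.30 (SE 0.54, adjusted p = 0.00367). As with Cxcl12, the contrast with WT did not pass when only those groups were fitted (adjusted p = 0.130) or with sex as a covariate (adjusted p = 0.104). Pdgfra (ENSMUSG00000029231.15, chromosome 5, 75152292 to 75198215), a marker of immature mesenchymal cells, read 9.40, 9.67, 2.76 and 7.30 FPKM in LoF, 11.7 and 7.21 in WT, and 8.00 and 14.9 in GoF. The 3 groups overlapped, and the GoF to LoF difference was 0.64 (95% interval -0.50 to 1.79, adjusted p = 0.482).

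The transcription factor genes were low. Foxc1 (ENSMUSG00000050295.3, chromosome 13, 31806691 to 31810643) read 9.80, 14.1, 2.75 and 6.58 FPKM in LoF, 3.90 and 5.93 in WT, and 1.04 and 0.683 in GoF. GoF lay below the other 6 libraries and differed from LoF by -2.15 (SE 0.58, adjusted p = 0.0380 in limma). That call ended in 11 of 15 alternatives, with any library other than LoF library 3 left out (adjusted p = 0.0566 to 0.196) and under median ratio scaling (adjusted p = 0.0569). Ebf3 (ENSMUSG00000010476.14, chromosome 7, 137193673 to 137314445) read 1.65, 3.68, 0.392 and 2.41 FPKM in LoF, 3.37 and 0.126 in WT, and 0 and 0.110 in GoF. GoF was again below the other 6 libraries, but no contrast of Ebf3 passed (GoF against LoF, -1.40, SE 0.65, adjusted p = 0.212).

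**Figure D2:**
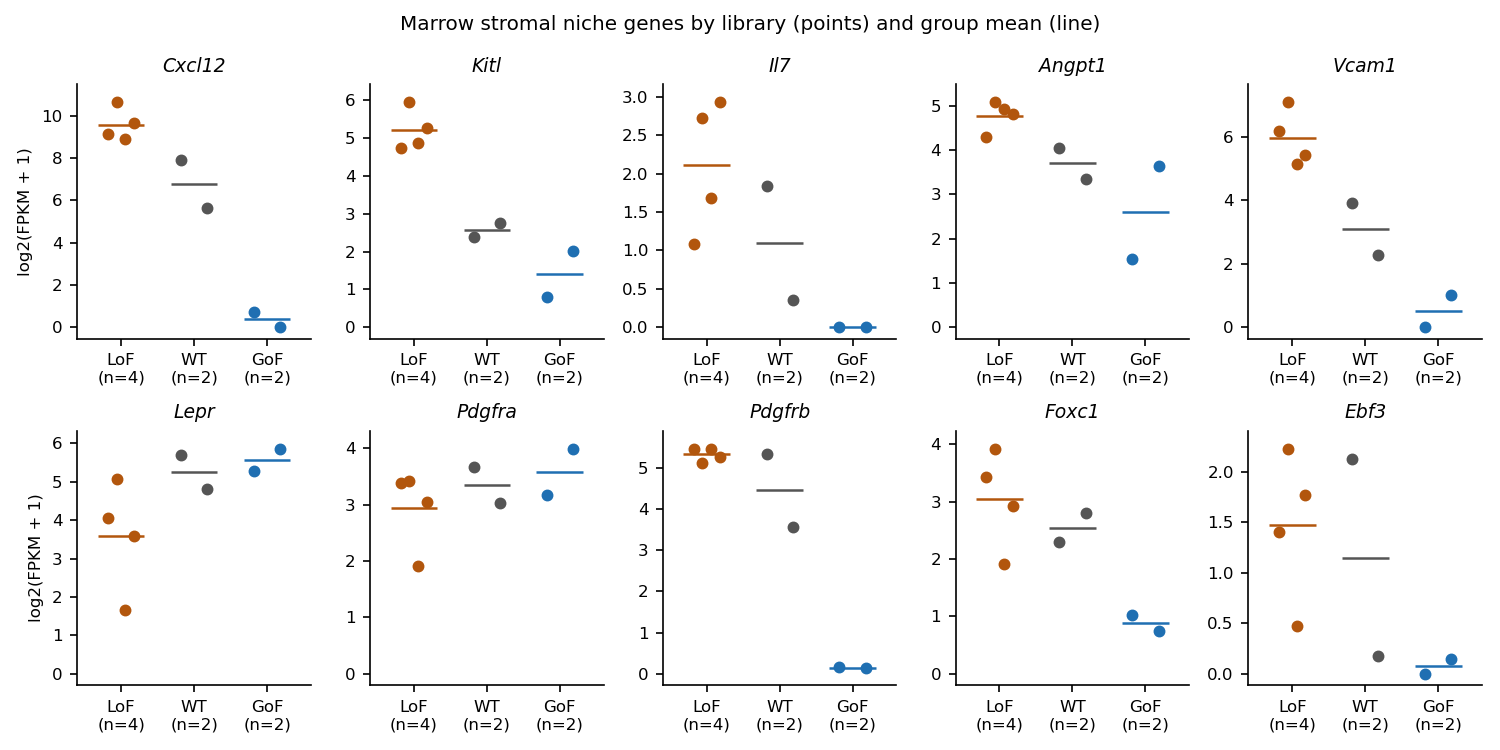
log2(FPKM + 1) of the 10 niche genes in each library (points) with the group mean (line), for 4 LoF, 2 WT and 2 GoF libraries, each panel with its own scale. The GoF points of Cxcl12, Pdgfrb, Vcam1, Il7 and Ebf3 lie at the bottom of their panels, while those of Lepr and Pdgfra lie among or above the WT points.

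Setting LoF against WT asks what deletion of β-catenin changed. Only Kitl was called higher, 1 of 10 members against 0.566% of all genes, and no member was called lower, against 0.667% of all genes (limma; 3 members were higher and 0 lower at an unadjusted p under 0.05). All LoF libraries exceeded both WT libraries in 4 members (Cxcl12, Kitl, Vcam1 and Angpt1), a pattern of 11.5% of all genes. Setting GoF against WT compares stabilised with unaltered β-catenin, but sex differed together with genotype in this contrast. Cxcl12 and Pdgfrb were called lower, 2 of 10 against 0.900% of all genes, and no member was called higher, against 1.41% of all genes (limma; 4 members were lower and 0 higher at an unadjusted p under 0.05). Both GoF libraries lay below both WT libraries in 7 members, all but Angpt1, Lepr and Pdgfra, a pattern of 26.2% of all genes. The 3 comparisons share libraries, so they are not independent of each other. With sex as a covariate no member passed in either contrast with WT. The differences were then -6.78 for Cxcl12 and -4.23 for Pdgfrb in GoF against WT, and 2.43 for Kitl in LoF against WT. Sex did not vary within GoF or within WT, so the sex term was estimated from the LoF libraries.

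The make-up of the niche signal was different in each group. Cxcl12 supplied 73.8% to 82.8% of the summed FPKM of the 10 genes in LoF, 61.8% and 41.1% in WT, and 1.33% and 0% in GoF. Lepr supplied 0.343% to 2.09% in LoF, 13.4% and 22.6% in WT, and 75.3% and 64.5% in GoF. The sum itself was 628 to 1899 FPKM in LoF, 382 and 119 in WT, and 50.6 and 88.3 in GoF. Lepr overlapped between WT (51.3 and 27 FPKM) and GoF (38.1 and 56.9). Its larger share in GoF than in WT thus came with lower sums. By mean FPKM, Lepr was the sixth most abundant member in LoF, the second in WT and the first in GoF, followed there by Pdgfra. The neighbours of Lepr in the LoF order, Angpt1 and Foxc1, overlapped with it in FPKM. On the log2(FPKM + 1) scale Lepr stood below the mean of the other 9 members in all LoF libraries (by -0.28, -0.05, -2.27 and -0.98), above it in WT (1.99 and 2.14) and further above it in GoF (4.46 and 4.56). The groups did not overlap in this difference, which is given without a test because the members were chosen with earlier results known. Cxcl12 carried 35.2 to 224 times the FPKM of Lepr in LoF (35.2 to 73.1 without LoF library 3, where Lepr was lowest) and 4.60 and 1.82 times in WT. In GoF library 1 this ratio was 0.0177, and in GoF library 2 Cxcl12 was listed at 0.

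**Figure D3:**
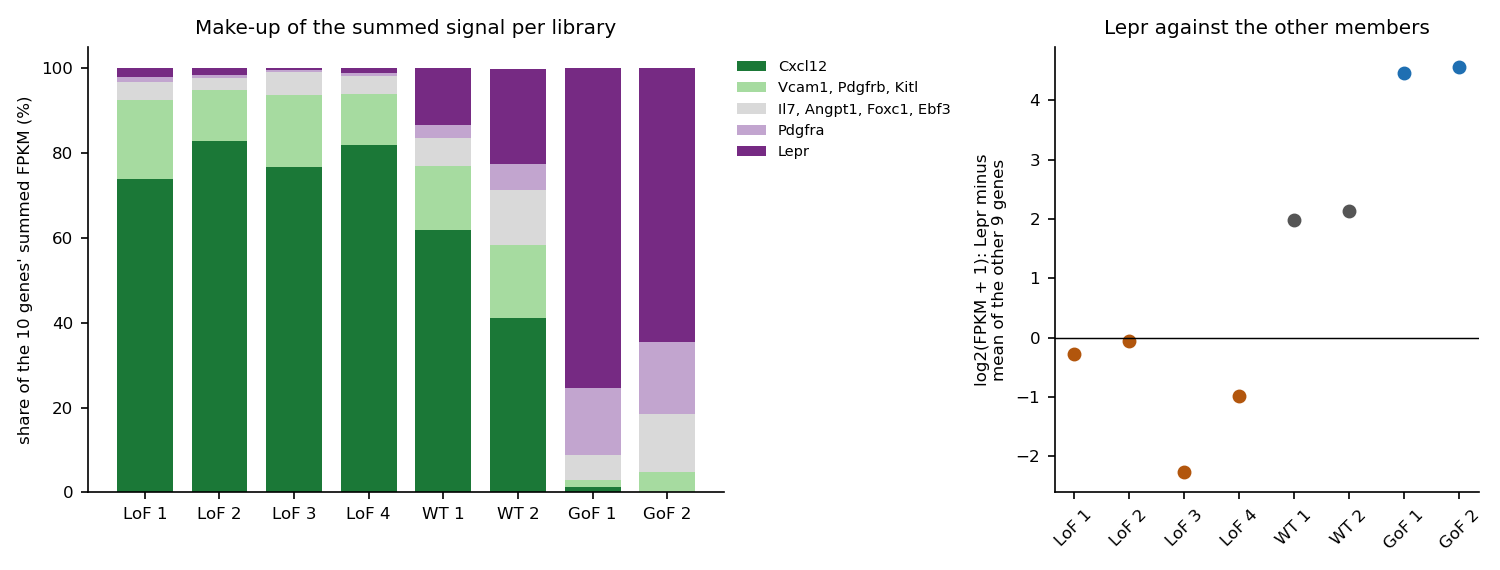
Left, share of each niche gene in the summed FPKM of the 10 genes per library (stacked bars, in percent). Right, Lepr minus the mean of the other 9 members on the log2(FPKM + 1) scale, 1 point per library. Cxcl12 held 73.8% to 82.8% of the sum in LoF, and Lepr held 75.3% and 64.5% of a smaller sum in GoF. The points rise from below 0 in LoF to above 4 in GoF.

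Libraries of the same genotype also differed. LoF library 2 lay above its group mean in 9 of 10 members (all but Pdgfrb) and LoF library 3 below it in 8 of 10 (all but Angpt1 and Pdgfrb), by a median of 0.75 and -0.74 on the log2(FPKM + 1) scale. The median over all genes tested was -0.05 and 0.04 in these libraries. Both held Y-linked transcripts, and the part of sex in the spread among LoF libraries was not tested. Adipoq, the adiponectin gene, which marrow stromal cells also express, read 24.8, 62.1, 0.567 and 26.7 FPKM in the LoF libraries. It was highest in library 2 and lowest in library 3, as were Cxcl12, Vcam1, Lepr, Pdgfra, Foxc1 and Ebf3. LoF library 3 also held more endothelial transcript than the others, with a summed FPKM of 58.4 for 6 markers against 0 to 9.19, led by Emcn at 38.5. In WT, library 1 exceeded library 2 in 8 of 10 members, all but Kitl and Foxc1, and the ratio was widest for Ebf3. Pdgfrb, at 33.9 to 42.9 FPKM, varied least among the LoF libraries relative to its mean.

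Of 20 receptors, ligands and other partners of the members, 19 were in the table and 13 could be tested. In GoF against LoF, 4 were higher (Pdgfa, Pdgfc, Pdgfd and Ackr3), 2 were lower (Angpt4 and Leprot) and 7 did not pass, with a median difference of 0.37 (-0.17 for all genes). Of all genes tested, 5.97% were called higher and 5.68% lower. Without GoF library 1, or without GoF library 2, the 6 calls became 2, which were Pdgfa and Angpt4. Of the genes for ligands of the platelet-derived growth factor receptors, the 3 that could be tested were all called higher in GoF. Pdgfa, a ligand of the α receptor, read 11.6, 5.27, 3.92 and 6.87 FPKM in LoF, 22.3 and 29.1 in WT, and 85.0 and 99.5 in GoF. Its groups did not overlap, and GoF exceeded LoF by 3.64 (SE 0.40, adjusted p = 0.000429 in limma), a call kept in all 15 alternatives. Pdgfd, a ligand of the β receptor, averaged 3.86 ± 2.77 FPKM in LoF (SD, n = 4), 10.1 ± 3.08 in WT (SD, n = 2) and 29.1 ± 6.76 in GoF (SD, n = 2). Its difference was 2.94 (SE 0.73, adjusted p = 0.0281), and that of Pdgfc 2.82 (SE 0.51, adjusted p = 0.00646). Leaving out either GoF library ended the calls of Pdgfc (adjusted p = 0.0544 to 0.0596) and Pdgfd (adjusted p = 0.101 to 0.203). Pdgfb, another ligand, was listed at 0 in all libraries but LoF library 4.

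Ackr3, the scavenging receptor that removes CXCL12, was higher in GoF than in both other groups. It read 2.31, 4.43, 3.40 and 4.13 FPKM in LoF, 0.824 and 3.08 in WT, and 19.7 and 11.5 in GoF. The difference was 1.84 from LoF (SE 0.49, adjusted p = 0.0382 in limma) and 2.56 from WT (SE 0.57, adjusted p = 0.0486). Both calls ended with sex as a covariate, and the call against WT also with only the 2 groups compared. Leaving out any LoF or GoF library ended the first call (adjusted p = 0.0533 to 0.365), and leaving out any library ended the second (adjusted p = 0.0526 to 0.402). Cxcr4, the signalling receptor for CXCL12, was at or below 0.351 FPKM in all libraries. Kit, the receptor for stem cell factor, averaged 0.669 ± 0.791 FPKM in LoF (SD, n = 4) and 2.38 ± 0.814 in GoF (SD, n = 2) and did not pass (adjusted p = 0.200). Itga4, the α4 integrin to which VCAM1 binds, read 1.27 and 2.97 FPKM in GoF and at most 0.407 elsewhere, and did not pass (adjusted p = 0.0646). Il7r was listed at 0 in all 8 libraries.

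Angpt4, like Angpt1 a gene of a TIE2 ligand, fell from 54.4 ± 5.20 FPKM in LoF (SD, n = 4) to 14.4 ± 4.19 in WT (SD, n = 2) and 2.11 ± 0.554 in GoF (SD, n = 2). The GoF to LoF difference of -4.17 (SE 0.32, adjusted p = 7.59e-05 in limma) was kept in all 15 alternatives. Those against WT passed for LoF (1.87, SE 0.32, adjusted p = 0.0261) and GoF (-2.29, SE 0.37, adjusted p = 0.0117). Both calls against WT ended with sex as a covariate and with only the 2 groups compared. Leaving out LoF library 2 or 4 or either WT library ended the LoF call (adjusted p = 0.0533 to 0.301), and leaving out WT library 1 or either GoF library ended the GoF call (adjusted p = 0.0767 to 0.140). Tek, which encodes TIE2 itself, was detected only in LoF library 3 (4.32 FPKM) and LoF library 4 (0.564). The summed endothelial markers were highest in LoF library 3 (58.4 FPKM) and at 0 in LoF library 4. LoF library 1, with a sum of 9.19, had Tek at 0.

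Leprot, whose product limits leptin receptor at the cell surface, did not share the pattern of Lepr. It read 45.1, 76.6, 52.7 and 83.4 FPKM in LoF, 49.0 and 21.8 in WT, and 17.2 and 23.1 in GoF. GoF was lower than LoF by -1.60 (SE 0.39, adjusted p = 0.0268 in limma), which ended in 8 of 15 alternatives. Among them were leaving out LoF library 2 or 4 or either GoF library (adjusted p = 0.0545 to 0.230). Lep, the leptin gene, was listed at 0 in all libraries.

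**Figure D4:**
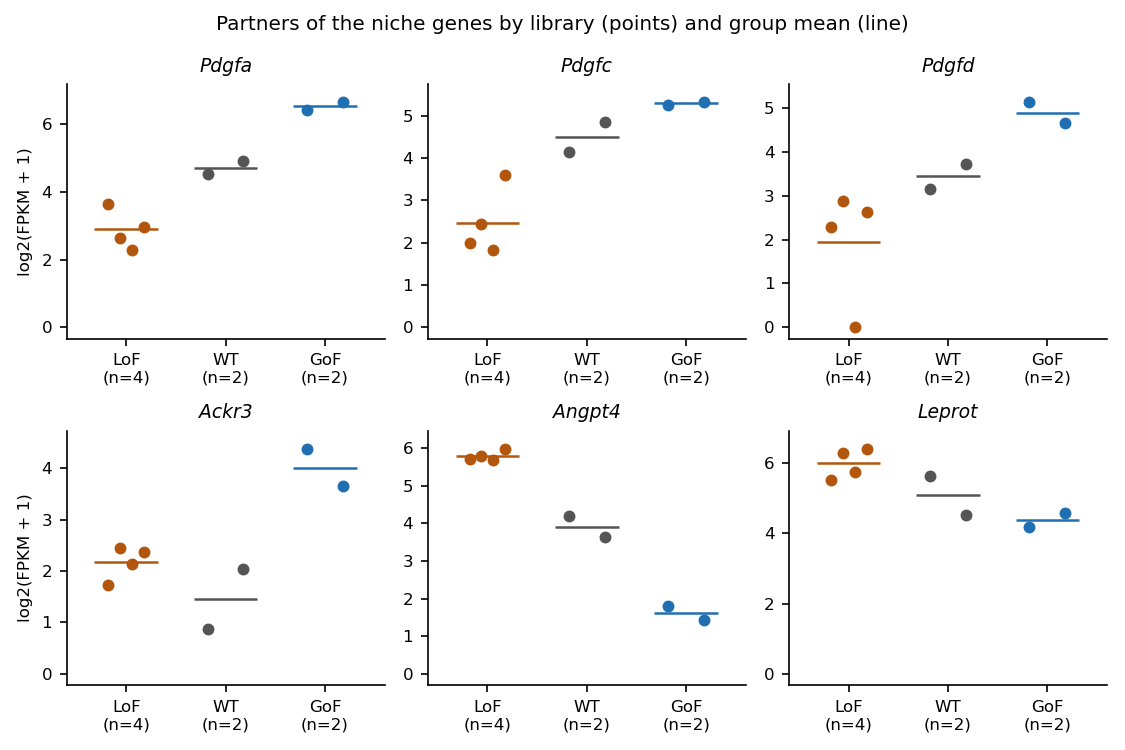
log2(FPKM + 1) of 6 partners of the niche genes in each library (points) with the group mean (line). The growth factor genes Pdgfa, Pdgfc and Pdgfd and the receptor gene Ackr3 are highest in the 2 GoF libraries, while Angpt4 and Leprot have their highest group mean in LoF.

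A further list of 34 genes of marrow stromal cells and their niche had 28 tested members. In GoF, 12 were lower than in LoF (5.68% of all genes), 1 was higher (Bmp4, against 5.97% of all genes) and 15 did not pass, with a median difference of -1.54 (-0.17 for all genes). The 13 calls became 6 without GoF library 1 and 5 without GoF library 2, all of them lower. Among those lost in both cases were Cebpa, Mcam and Thy1, and Agt was lost without GoF library 2 or LoF library 1, 2 or 4. In LoF against WT, Lpl was higher (3.47, adjusted p = 0.0243, and 0.0502 to 0.179 without LoF library 2 or 4 or WT library 2) and 27 did not pass, where 0.566% of all genes were higher. In GoF against WT, Csf1, Gas6 (adjusted p = 0.0611 without WT library 1) and Lpl were lower and 25 did not pass, where 0.900% of all genes were lower. Without WT library 1 the 3 calls became 1. The calls of Lpl, Csf1 and Gas6 against WT all ended with sex as a covariate and with only the 2 groups compared. Ebf2 was too low to be tested. Gas6, a ligand of TAM receptor kinases, averaged 35.2 ± 7.29 FPKM in LoF (SD, n = 4), 17.9 ± 9.69 in WT (SD, n = 2) and 0.333 ± 0.470 in GoF (SD, n = 2), with a GoF to LoF difference of -4.79 (SE 0.43, adjusted p = 0.000161 in limma). Pparg, the master regulator of fat cells, was lower by -3.54 (SE 0.52, adjusted p = 0.0023) and Esm1 by -3.61 (SE 0.76, adjusted p = 0.0135, ending without either GoF library). The growth factor gene Igf1 and Csf1, the macrophage growth factor gene, were lower by -4.27 (SE 0.51, adjusted p = 0.000709) and -3.37 (SE 0.46, adjusted p = 0.00137). Csf1 was also lower in GoF than in WT (-2.62, SE 0.53, adjusted p = 0.0321), a call that ended without LoF library 2, either WT library or either GoF library (adjusted p = 0.0520 to 0.248). Ebf1, a close relative of Ebf3, was more abundant than Ebf3 and averaged 27.4 ± 4.63 FPKM in LoF (SD, n = 4) and 5.45 ± 0.846 in GoF (SD, n = 2). Its difference was -2.13 (SE 0.46, adjusted p = 0.0147), a call that ended without either GoF library (adjusted p = 0.0813 and 0.105). Grem1, a marker of skeletal stem cells, was listed at 0 in both GoF libraries and read 1.99 to 4.21 FPKM in LoF (adjusted p = 0.0172, ending without either GoF library). Bmp4 rose by 3.70 from LoF to GoF (SE 0.86, adjusted p = 0.0215), which also ended without either GoF library (adjusted p = 0.0799 to 0.145).

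The profile over the 8 libraries most like that of Cxcl12, by the root mean square difference of log2 values centred on each gene's mean, was that of Lpl, the lipoprotein lipase gene (0.67). Lpl read 386 to 595 FPKM in LoF, 95.4 and 16.5 in WT, and 1.17 and 0.131 in GoF. The gelatinase gene Mmp9 (1.32), Wisp2 (1.35), the collagenase gene Mmp13 (1.48) and the imprinted gene Mest (1.71) followed, with Vcam1 as the sixth (1.73) and Pdgfrb as the eighth (1.77) of all named genes tested. Lepr, at 4.64, came at place 10657. The profiles most like that of Lepr were those of Osbpl2 (0.37), Fer (0.44), Ctage5 (0.47), Tnfrsf19 (0.48) and Tbl2 (0.52), all with their lowest value in LoF library 3. Of the other members, Pdgfra was the most like Lepr (0.81).

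Of the marker lists for other cells, those of pericytes and adipocytes were highest in LoF, and that of osteoblasts was lowest there. The summed FPKM of 6 pericyte and smooth muscle markers was 35.2 to 60.7 in LoF, 20.4 and 33.4 in WT, and 3.84 and 3.74 in GoF. Of these, Myh11, which defines smooth muscle, was at 0 in all libraries, Rgs5, which defines pericytes, was at 0 in LoF library 3, both WT libraries and GoF library 2, and Mcam was at 0 in both GoF libraries. Cspg4 overlapped between the groups, at 2.70 to 5.68 in LoF, 7.59 and 1.63 in WT, and 3.01 and 3.22 in GoF. Acta2 was the highest of them in every LoF library but library 1 and in both WT libraries. For 5 adipocyte markers the sum was 112 to 270 in LoF, 15.9 and 0 in WT, and 3.27 and 0 in GoF, with Cfd at 0 throughout and Adipoq counted here as well as in the list of 34. For 5 osteoblast markers it was 719 to 1727, 10741 to 11051 and 14569 to 16079 in the same order. Col1a1 and Ibsp made up most of that sum, and Col1a1 overlapped between WT (5470 and 6681) and GoF (6090 and 4626). For 6 osteoclast markers, 3 of them at 0 throughout, it was 58.9 to 73 in LoF, 63.8 to 72.4 in WT and 95.6 to 98.8 in GoF. For 4 chondrocyte markers it was 18 to 65.2, 13.4 to 13.6 and 59.6 to 115. Haematopoietic markers, 4 in number, summed to 13.2 to 46.3 in LoF, 16.3 to 22.3 in WT and 15.3 to 17.9 in GoF, and 4 myeloid markers to 5.24 to 13.3, 5.34 to 9.42 and 7.21 to 11.4. Of the haematopoietic markers, Cd52 and Ptprc read 27.6 and 4.66 in LoF library 2, against at most 3.11 and 0.586 in any other library. Laptm5 and Coro1a were highest in LoF library 4 (32.1 and 14.2). The part of pericytes, adipocytes or osteoblasts in the differences of the niche genes was not tested. Leaving out LoF library 3, which held the most endothelial transcript, changed the count of 6 members called in GoF against LoF to 5. It was 6 without LoF library 1 and 4 without LoF library 2 or 4. The part of endothelial or haematopoietic cells was not tested.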

How the data were processed

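The members and lists were chosen with earlier results of these data known. RNA of pooled cells was amplified with Smart-seq2, per the labels' protocols, which does not mark strand, so a member and an antisense partner (Il7, Angpt1, Vcam1, Pdgfra and Ebf3 have 1 or more) cannot be told apart. Overlapping genes reached at most 1.71 FPKM. The authors deposited FPKM per gene and library. The submitters' processing notes name HISAT2, SAMtools 0.1.18, Cufflinks, HTSeq and mm10, and the annotation release is not given in the sources used here. Of 48555 lines, 65 repeated a gene ID with identical values and were dropped. No read totals are known, and intervals for counting error are therefore not given.

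Genes with FPKM of at least 1 in at least 2 libraries were tested as log2(FPKM + 1) with limma 3.58.1 (R 4.3.3), all 3 groups together, with a mean-variance trend and Benjamini-Hochberg adjustment over 12888 genes, two-sided. The code was tested on simulated data. All 10 members are named. Of the lists, a fixed set of genes and up to 6 called genes per comparison could be named, and for Cxcl12 and Lepr the 5 most alike. Alternatives numbered 15, among them leaving out each of 8 libraries.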

Additional observations from a re-analysis of the deposited data

Results flagged for a closer look

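Among 23 genes checked in the 4 LoF libraries, 2 had a library far from the others. Chance marks about 1 gene in 20 where values are normally distributed. That rate does not apply to these genes, which were listed at 0 in several LoF libraries. Tek, the gene of the angiopoietin receptor TIE2, read 4.32 FPKM in LoF library 3, against at most 0.564 in the other LoF libraries. Pdgfb read 0.208 FPKM in LoF library 4 and was listed at 0 in the other LoF libraries. None of the 10 niche genes had such a library.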

How the results depend on the processing

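Of 450 values of the members under the alternatives, 407 kept direction and side of the threshold, 34 lost the call, 3 gained it and 6 changed sign. Cxcl12, Kitl, Vcam1 and Pdgfrb stayed called in GoF against LoF in all 15, where 4 to 7 members were called. The cause of the changes was not tested. In LoF against WT, 0 members instead of 1 were called with a pseudocount of 0.1, without a filter, without a mean-variance trend, with only the 2 groups compared, with the replicate block and with sex as a covariate, and 0 to 1 with a library left out. In GoF against WT, 0 instead of 2 were called with only the 2 groups compared, the replicate block or sex as a covariate.

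Over all genes, 1501 were called in GoF against LoF, 727 with the replicate block, 974 with sex as a covariate, and 414 (without GoF library 1) to 1400 with a library left out. Median ratio scaling called 984 higher and 659 lower, in place of 769 and 732. In LoF against WT, 159 were called, and 83 with a pseudocount of 0.1, 53 without a filter, 54 without a trend, 0 with only the 2 groups compared, 1 with the replicate block, 14 with sex as a covariate and 3 (without WT library 2) to 135 with a library left out. In GoF against WT, 298 were called, and 0 with only the 2 groups compared, 15 with the replicate block, 11 with sex as a covariate and 48 (without WT library 1 or GoF library 1) to 337 with a library left out. With the replicate block, 8 other niche genes in place of 13, and 3 partners in place of 6, were called in GoF against LoF. Same-numbered libraries correlated at -0.00687 to 0.0303 in their deviations from group means. With 2 libraries each in WT and GoF, this cannot settle whether the numbers pair the libraries.

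Sign changes were in values that did not pass. With a library left out, the LoF to WT difference ran from -0.66 to 1.30 for Ebf3, -0.01 to 1.76 for Pdgfrb and -0.19 to 0.17 for Itga4 (0.08 and 0.05 without LoF library 1 or 3), and the GoF to WT difference from -0.14 to 0.76 for Lepr and -0.18 to 0.65 for Pdgfra (-0.08 without WT library 2). Pdgfra in LoF against WT was 0.05 with the replicate block. Read totals are unknown, so depth sets no stated limit on the low values of Il7 and Ebf3.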
